A study of Drosophila melanogaster with 22 samples.

Results

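The genes described here are 32 genes of digestive enzymes of Drosophila melanogaster, out of 13686 genes with RNA values. They are 16 Jonah (Jon) proteases, 9 trypsins and 7 lysozymes. They were taken by name from the deposited RNA tables, as symbols that begin with Jon and a digit, end in Try, or consist of Lys and a single capital letter. Names that begin with Mal-A, which would have added maltases, matched 0 rows, so no maltase is among the 32. The trypsin gammaTry matched but filled 2 rows, and repeated names were left out.

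The study profiled open chromatin and messenger RNA in 22 samples, of which the 9 RNA samples are used here. OregonR embryos, taken whole, gave 3 of them, from windows of 2 to 4 h, 6 to 8 h and 16 to 18 h of development. The other 6 came from a y;cn,bw,sp strain, and were the T3 leg, haltere and wing imaginal discs of 3rd instar larvae and the T3 leg, haltere and wing of pharate adults at stage P14. Imaginal discs are the larval epithelial sacs that form adult appendages, and a pharate adult is a fly fully built but still enclosed in the puparium. Each tissue had 1 value per gene, in FPKM (fragments scaled to transcript length and library size), although the labels name 2 replicates behind it. No spread between replicates and no test could therefore be given, and all differences below are ratios of listed values. The embryo, disc and pharate tables were deposited separately, and values are compared within a table.

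Jonah proteases and trypsins are secreted serine endopeptidases that cut dietary protein in the gut lumen. Lysozymes cleave the peptidoglycan of bacterial cell walls, and flies, which feed on microbes, make several of them in the midgut and salivary glands. Many of these genes lie side by side in tandem arrays of related copies, and reads from close copies can be assigned to the wrong one. This applies most to the neighbours LysB, LysC, LysD and LysE, of which RefSeq lists LysC as a pseudogene, to alphaTry and betaTry, and to Jon99Cii and Jon99Ciii.

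A value of 0 in these tables need not mean absence of transcript. The translation initiation factor gene eIF-4a, which every cell uses, was listed at 0 in 6 of the 9 columns. Genes are therefore called listed at 0, and folds are quoted only where both values were above 0. Counts of genes at least 2-fold apart, and the log2 ratios in the closing section, do include zeros, and there the pseudocount of 1 sets the size of the ratio. Between 22.8% and 39.5% of all genes were listed at 0 in a column. The numbers of reads were not known, and among 3104 genes of the members' span (242 to 1397 bp in RefSeq) the 5th percentile of values above 0 ran from 2.67 FPKM in the wing disc to 5.58 in the pharate wing. Of 11 disc patterning genes, 11 were above 0 in leg and haltere discs and 10 in the wing disc, where hth was listed at 0. The same list had 9 to 10 genes above 0 in embryos and 9 to 11 in pharate appendages, so detection alone does not mark the discs, and no markers of the embryo or pharate tissues were used.

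Of the 32 genes, 25 were above 0 at some embryonic stage, 21 in some disc and 7 in some pharate appendage. Of all 13686 genes, 9742 were above 0 in some disc. Listed at 0 were 31, 29 and 8 of the 32 over the embryonic stages, beside 39.5%, 32.9% and 22.8% of all genes. In leg, haltere and wing discs 13, 11 and 19 were at 0, beside 32.4%, 33.0% and 34.4%. In pharate leg, haltere and wing 29, 31 and 26 were at 0, beside 32.1%, 30.6% and 33.3%. Only Jon44E, Jon65Aii and thetaTry were listed at 0 in all 9 columns. In all, 11 genes reached 50 FPKM in any column. Summed over the 32 genes, the level was 4.00, 205 and 968 FPKM at the 3 embryonic stages, and 1000.5, 4721 and 233 in leg, haltere and wing discs. It was 35.3, 5.001 and 58.1 FPKM in the pharate leg, haltere and wing. The haltere disc thus had the highest sum of its table.

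**Figure D1:**
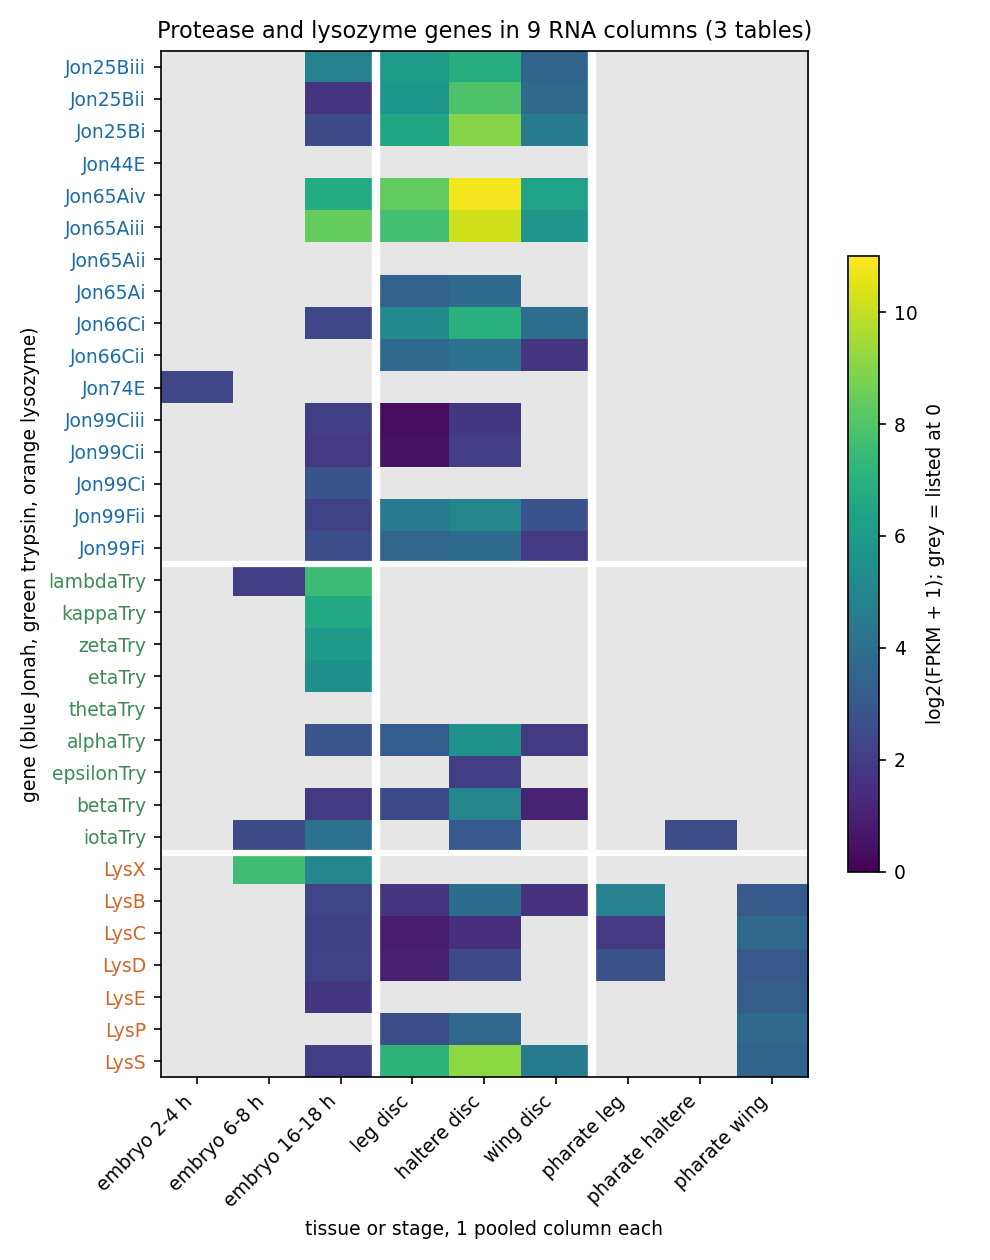
Level of each of the 32 genes (rows, ordered within family by chromosome arm and neighbourhood) in the 9 RNA columns, as log2(FPKM + 1), with grey for genes listed at 0. The 3 blocks of columns are separate tables, and colour is concentrated in embryos at 16 to 18 h and in the discs, with lysozymes and iotaTry alone in the pharate block.

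In embryos, most of these genes were first listed above 0 at 16 to 18 h. At 2 to 4 h the protease gene Jon74E was the only one above 0, at 4.00 FPKM, and it was listed at 0 in every other column. At 6 to 8 h there were 3: LysX at 197 FPKM, iotaTry at 4.93 and lambdaTry at 3.00. At 16 to 18 h there were 24, with 8 listed at 0 beside 22.8% of all genes, and 12 of the 24 reached 5 FPKM. Jon65Aiii stood highest at 332 FPKM, followed by lambdaTry at 188, Jon65Aiv at 108 and kappaTry at 101. The sum at that stage was 51.6% Jonah proteases, 43.4% trypsins and 5.05% lysozymes.

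Between 16 to 18 h and 2 to 4 h, 12 of the 32 stood at least 2-fold above the earlier level and 0 below it, on log2((FPKM + 1)/(FPKM + 1)) and with at least 5 FPKM in either column. All 12 were listed at 0 at 2 to 4 h, so each passed that minimum only through the later stage. Over all 10190 genes tested, 41.2% were higher and 33.5% lower. A difference between these stages was thus common among all genes. Against 6 to 8 h, 11 genes were higher and 1, LysX, lower, beside 34.7% and 31.1% of all genes tested. Those 11 passed the minimum only through the later stage, and 9 of them were listed at 0 at 6 to 8 h. Between 6 to 8 h and 2 to 4 h, LysX alone was higher and 0 were lower, beside 25.9% and 18.9%. These are whole embryos, in which more cells of a type and more RNA per cell cannot be told apart.

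LysX had a time course of its own among the lysozymes. It was listed at 0 at 2 to 4 h, at 197 FPKM at 6 to 8 h and at 32.8 at 16 to 18 h, and at 0 in all discs and pharate appendages. At 6 to 8 h it ranked 3038 of 13686 genes. The other lysozymes were listed at 0 until 16 to 18 h. Then LysB stood at 3.90, LysD at 3.48, LysC at 3.22, LysS at 3.15 and LysE at 2.36 FPKM, and LysP at 0. Of the values above 0, all but that of LysB lie below the 5th percentile of values above 0 in that column, 3.53 FPKM.

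The trypsin genes are neighbours on chromosome arm 2R, and the array divided by position. In the late embryo, where the median of all genes was 44.4 FPKM, the 4 adjacent genes at one end were above 0. They were listed at 0 in every disc and pharate column. They were lambdaTry at 188, kappaTry at 101, zetaTry at 61.1 and etaTry at 44.9 FPKM at 16 to 18 h, in falling order along the chromosome. Only lambdaTry was above 0 at an earlier stage. Next to them lies thetaTry, listed at 0 throughout. Beyond it, alphaTry was listed at 6.53 FPKM at 16 to 18 h and betaTry at 2.65, with epsilonTry between them at 0.

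In the haltere disc the genes of the array above 0 all lay beyond thetaTry. There alphaTry was listed at 47.4 FPKM, betaTry at 31.2 and epsilonTry at 3.03, and the first 5 genes at 0. Both alphaTry and betaTry were also above 0 at 16 to 18 h, betaTry (2.65 FPKM) below the 5th percentile of values above 0 at that stage, 3.53 FPKM. The value of epsilonTry lay below the 5th percentile of values above 0 in the haltere disc, 4.79 FPKM. At the far end, iotaTry was above 0 in both, at 16.3 FPKM in embryos at 16 to 18 h and 7.01 in haltere discs, with 0 in leg and wing. The 2 rows of gammaTry, which were not counted, stood at 59.9 and 59.2 FPKM in haltere discs and were listed at 0 at 16 to 18 h. The 2 tables were scaled separately, so this is a difference in which genes were listed, not in how much.

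**Figure D2:**
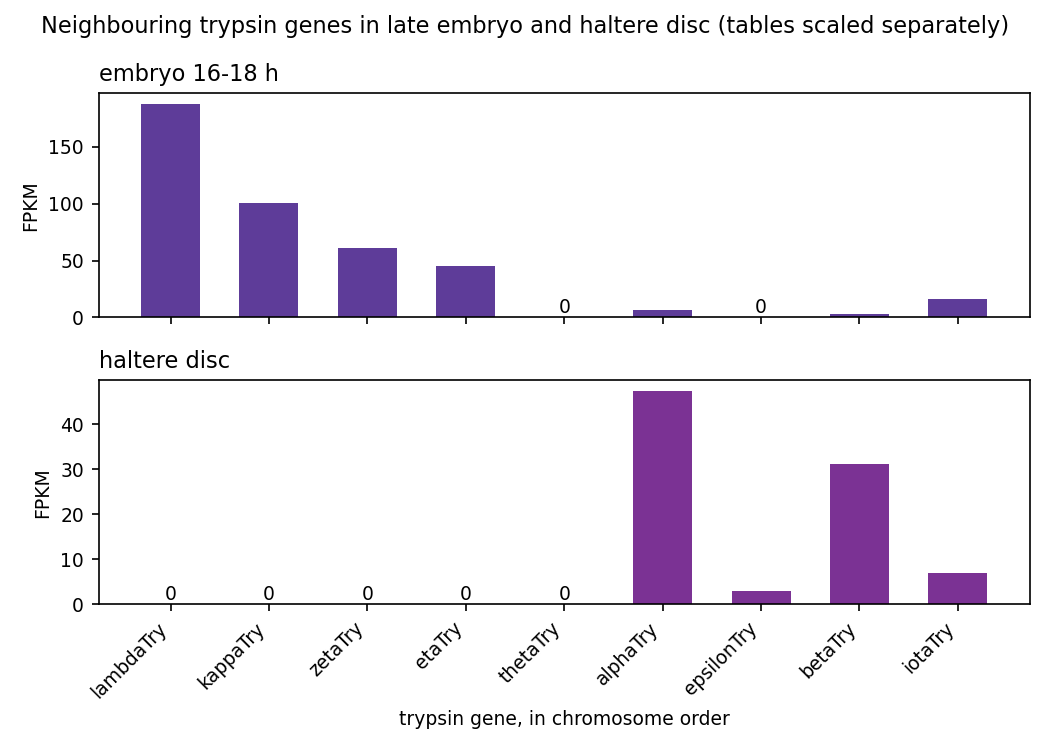
FPKM of the 9 trypsin genes in chromosome order, in embryos at 16 to 18 h (upper panel) and in the haltere disc (lower panel), with 0 printed where a gene is listed at 0. Bars from lambdaTry to etaTry (188 to 44.9 FPKM) appear only in the upper panel, and the tallest bars of the lower panel are alphaTry (47.4) and betaTry (31.2).

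Jonah proteases, too, were unequal among neighbours in the late embryo. In the Jon65A group on 3L, Jon65Aiii was at 332 and Jon65Aiv at 108 FPKM at 16 to 18 h, while Jon65Aii and Jon65Ai were listed at 0. In the Jon25B group on 2L, Jon25Biii was at 27.4, Jon25Bi at 4.79 and Jon25Bii at 2.10. The others were low, with Jon99Ci at 6.20, Jon99Fi at 5.27, Jon66Ci at 4.06, Jon99Fii at 3.44, Jon99Ciii at 3.15 and Jon99Cii at 2.51, and Jon66Cii at 0. Jon65Aiii and Jon65Aiv together made 88.2% of the Jonah sum at this stage.

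The discs differed from one another in level. Of the 21 genes above 0 in any disc, 21 were highest in the haltere disc, and 19 stood in the order haltere above leg above wing. The other two, iotaTry and epsilonTry, were listed at 0 in leg and wing. Over all 9742 genes above 0 in a disc, 42.0% were highest in the haltere disc and 32.3% had the full order.

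The Jonah proteases carried most of the disc signal, from 84.0% of the sum in the leg disc to 87.8% in the wing disc. Jon65Aiv had 1782 FPKM in haltere, 325 in leg and 80.8 in wing discs, which ranked it 374, 1892 and 5167 among 13686 genes. Jon65Aiii stood at 1171, 209 and 52.1 FPKM in the same order. Together they made 73.2% of the Jonah sum in the haltere disc, so 2 neighbouring genes dominated it.

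The Jon25B genes were next among the proteases. Jon25Bi was listed at 514 FPKM in the haltere, 96.1 in the leg and 23.0 in the wing disc. Jon25Bii was at 244, 54.5 and 12.7, and Jon25Biii at 114, 64.8 and 10.5. Jon25Biii, the highest of the 3 in the late embryo, was thus the lowest in haltere and wing discs and between its neighbours in the leg disc. Jon66Ci was listed at 127, 36.0 and 14.8 FPKM, and its neighbour Jon66Cii at 16.6, 12.4 and 2.25.

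Among the remaining Jonah genes, Jon99Fii was at 32.5, 20.5 and 5.92 FPKM in haltere, leg and wing and Jon99Fi at 13.5, 11.6 and 2.67. Jon65Ai was at 13.2 in the haltere and 9.39 in the leg disc and listed at 0 in the wing disc. Jon99Cii and Jon99Ciii were under 3 FPKM in the haltere disc and listed at 0 in the wing disc. Jon44E, Jon65Aii, Jon74E and Jon99Ci were listed at 0 in all discs.

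One lysozyme, LysS, was high in discs. It was listed at 567 FPKM in the haltere, 138 in the leg and 22.6 in the wing disc, and ranked 1181 of 13686 in the haltere disc. LysB was at 13.8, 2.16 and 2.00 FPKM. LysP, known from adult salivary glands, was at 12.3 in the haltere disc and 5.29 in the leg disc and listed at 0 in the wing disc. LysD (4.395 and 0.973) and LysC (1.91 and 0.811) were low in haltere and leg and at 0 in the wing, and LysE and LysX were listed at 0 in all discs. LysS thus made 567 of the 599 FPKM summed over lysozymes in haltere discs. Among trypsins, alphaTry was at 8.16 FPKM in the leg and 2.68 in the wing disc and betaTry at 4.48 and 1.15.

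**Figure D3:**
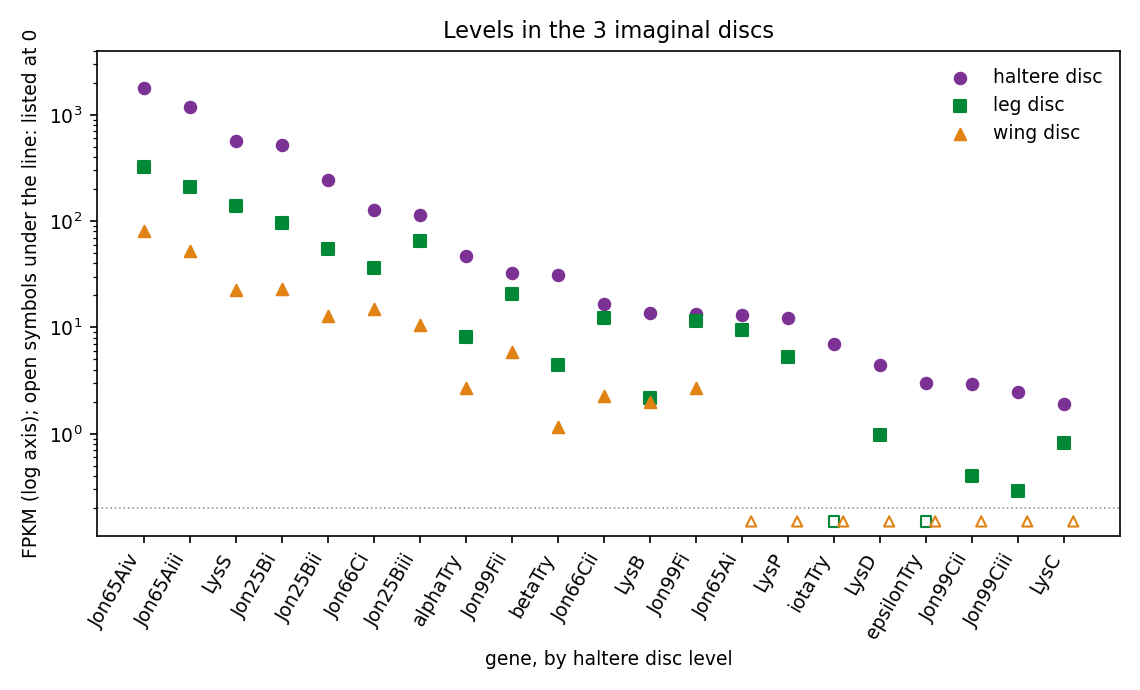
FPKM (log axis) of the 21 genes above 0 in any disc, in haltere (circles), leg (squares) and wing (triangles) discs, with open symbols under the dotted line for genes listed at 0. Circles lie highest for every gene, from 1782 FPKM for Jon65Aiv to 1.91 for LysC, and the distance between circle and square narrows for Jon25Biii, Jon99Fii, Jon66Cii, Jon99Fi and Jon65Ai.

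Between haltere and wing discs, 16 of the 32 had at least 2-fold more in the haltere disc and 0 had less, and 3 of the 16 were listed at 0 in the wing disc. A further 11 were listed at 0 in both and 5 stayed under 5 FPKM in both. Of all 8577 genes tested, 15.5% were higher and 4.29% lower. Of the 16 genes, 8 passed the minimum only through the haltere disc. The other 8 had at least 5 FPKM in the wing disc, and 8 of these 8 were higher in the haltere disc, beside 8.20% of the 7805 genes at that wing disc level. The 13 genes above 0 in both discs had a median log2 ratio of 3.72, beside 0.03 for the 8108 genes tested and above 0 in both. Folds of the 13 ran from 5.04 (Jon99Fi) to 27.0 (betaTry). The wing disc values of betaTry (1.15 FPKM), LysB (2.00), Jon66Cii (2.25) and Jon99Fi (2.667) lay below the 5th percentile of values above 0 there, 2.674 FPKM. Both ends of the range thus rest on such low values.

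Between leg and wing discs, a comparison without the haltere disc, 13 of the 32 genes were higher in the leg disc and 0 lower. Of all 8321 genes tested, 10.7% were higher and 3.55% lower. The same 8 genes with at least 5 FPKM in the wing disc were all higher, beside 6.20% of all genes at that level. The 13 genes above 0 in both had folds from 1.08 (LysB) to 6.15 (Jon25Biii), with quartiles of 3.47 and 4.33. Their median log2 ratio was 1.98, beside 0.05 for the 8003 genes tested and above 0 in both. LysB and betaTry, under 5 FPKM in both discs, are among these 13 but were not tested.

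Between leg and haltere discs, 11 genes were lower in the leg disc, 5 were within 2-fold and 0 were higher, beside 12.6% lower and 3.24% higher of all 8529 genes tested. Of the 11, betaTry, LysB and iotaTry passed the minimum only through the haltere disc, and iotaTry was listed at 0 in the leg disc. The median log2 ratio of the 19 genes above 0 in both was -1.50, beside 0.01 for the 8351 genes tested and above 0 in both. Among the 19 are LysC, LysD, Jon99Cii and Jon99Ciii, which were under 5 FPKM in both discs and so not tested.

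The leg disc level as a percentage of the haltere disc level was uneven among these genes. Of the 19 genes above 0 in both discs, 12 stood at 11.7% to 28.4%. They were Jon99Ciii (11.7%), Jon99Cii (13.5%), betaTry (14.3%), LysB (15.6%), alphaTry (17.2%), Jon65Aiii (17.9%), Jon65Aiv (18.3%), Jon25Bi (18.7%), LysD (22.1%), Jon25Bii (22.3%), LysS (24.4%) and Jon66Ci (28.4%). Jonah genes only made up the upper end, with Jon25Biii at 57.0%, Jon99Fii at 63.1%, Jon65Ai at 71.3%, Jon66Cii at 74.4% and Jon99Fi at 85.9%. LysC (42.6%) and LysP (43.1%) lay between. In both discs, Jon99Ciii, Jon99Cii, LysD and LysC were below the 5th percentile of values above 0 (3.13 FPKM in leg and 4.79 in haltere).

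Neighbours fell on both sides of this range. Jon66Ci stood at 28.4% and Jon66Cii at 74.4%, Jon25Bi at 18.7% and Jon25Biii at 57.0%, and Jon65Aiii at 17.9% and Jon65Ai at 71.3%. Leg over wing disc folds of the 2 sides overlapped. Jon25Biii, Jon66Cii, Jon99Fi and Jon99Fii had 3.47 to 6.15. The 9 genes at 28.4% or less that were above 0 in all discs had 1.08 (LysB) to 6.12 (LysS). LysB lay below the 5th percentile of values above 0 in both leg (2.16 FPKM) and wing (2.00), and the next lowest was Jon66Ci at 2.43. In the wing disc betaTry, Jon66Cii and Jon99Fi were below it too. The division was read from the values after they were seen, and with 1 column a disc its stability could not be tested.

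Summed levels of genes of other larval tissues followed the same order of discs. Summed over 7 fat body genes, the level was 15274 FPKM in the haltere, 4276 in the leg and 1196 in the wing disc, with Fbp2 and Lsp1beta highest. For 10 salivary gland genes the sums were 28525, 8100.3 and 2484, with Sgs4, ng1 and ng2 at 0 in every disc and fkh at 0 in the wing disc. For 6 haemocyte genes they were 691, 299 and 149.9, and for 11 muscle genes 78147, 22871 and 7297, with wupA at 0 in leg and haltere. In the haltere disc, Sgs7 and Sgs8, Pxn and He, and Act57B and Mlc2 were the highest of these 3 lists. Single genes went against the order: wupA was at 356 FPKM in the wing disc alone, and crq (99.9 in haltere, 103 in leg) and sls (14.1 and 20.6) were higher in the leg than in the haltere disc. At least 2-fold higher in the haltere than in the wing disc were all 7 fat body genes and 6 of 10 salivary gland genes. So were 5 of 6 haemocyte genes and 8 of 11 muscle genes, and 1 muscle gene, wupA, was lower. Of all 8577 genes tested, 15.5% were higher and 4.29% lower. The haemocyte gene eater and the muscle gene bt passed the minimum only through the haltere disc. Sums of 5 tracheal genes (1375, 1272 and 1327 FPKM) and of 11 disc patterning genes (2002, 2711 and 2420.2) did not have this order. The highest of these in any disc were serp and Gasp, and Dll and ap. Of 4 Malpighian tubule genes, Irk3 and Uro were higher in the haltere than in the wing disc, and Lkr and ZnT35C were at 0 in every disc. Irk3 and Uro also passed the minimum only through the haltere disc. The part of adhering larval tissue in the disc values of the digestive genes was not tested.

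In the leg disc, the fat body genes stood at 23.7% to 31.3% of the haltere disc (7 genes) and the salivary gland genes at 23.7% to 35.3% (7 genes). The ranges were wider for other midgut genes (18.1% to 71.7%, 7 genes), haemocyte genes (29.1% to 103%, 6 genes) and muscle genes (27.1% to 146%, 10 genes). The digestive genes ran from 11.7% to 85.9%, or from 14.3% (betaTry) among those with at least 5 FPKM in the haltere disc. Over the 8237 other genes above 0 in both discs and at 5 FPKM or more in the haltere disc, the median was 101%.

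**Figure D4:**
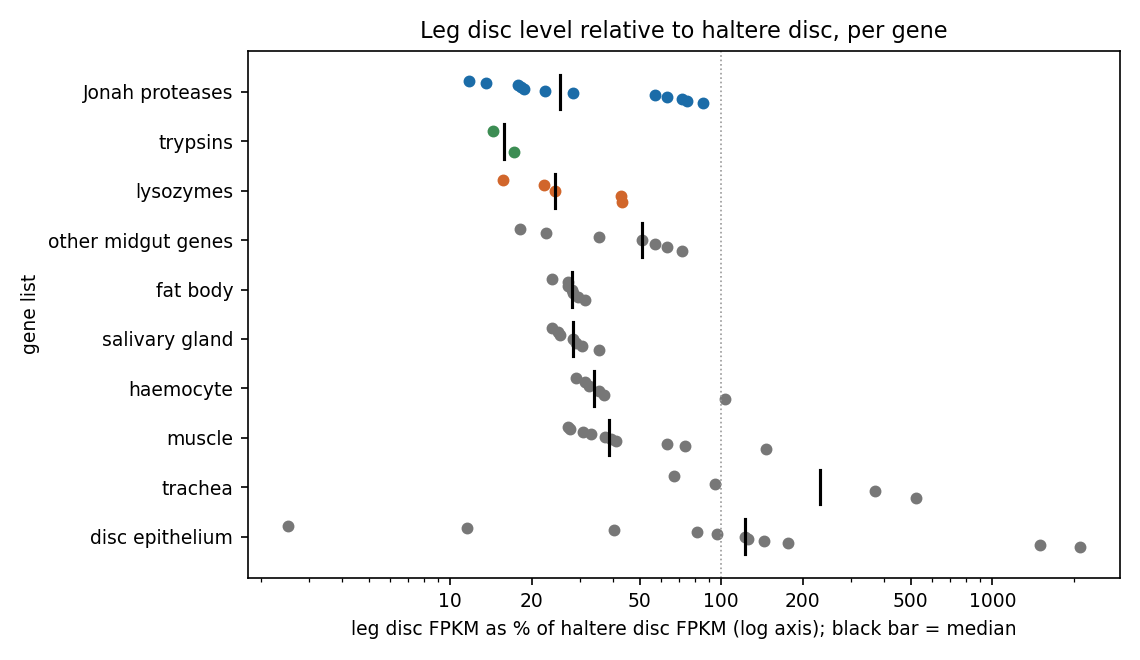
Leg disc FPKM as a percentage of haltere disc FPKM (log axis), 1 point per gene above 0 in both discs, for the digestive genes by family and for 7 other gene lists, with a black bar at each median. Jonah proteases spread from 11.7% (Jon99Ciii, under 5 FPKM in both discs) to 85.9%, fat body genes from 23.7% to 31.3%, and disc patterning genes around a median of 123%.

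Disc profiles of other genes were compared with the median profile of the 16 digestive genes with at least 5 FPKM in a disc. Of these 16, 8 were under 5 FPKM in the wing disc, and betaTry, LysB and iotaTry reached 5 FPKM in the haltere disc only. This choice favours a profile high in the haltere disc. The candidates were 6563 genes with at least 50 FPKM in a disc, and the digestive genes described here were left out. Of the other midgut genes found, only yip7, Npc2b and Npc2f reached that level in a disc. None of them was among the 10 nearest genes, but with so few as candidates their absence says little about likeness to the midgut. Likeness was the distance between log2(FPKM + 1) values of the 3 discs, centred on their mean. Nearest were the muscle gene Mlp60A (10464 FPKM in haltere, 2839 in leg and 845 in wing) and the larval serum protein gene Lsp1beta (3938, 1068 and 311). The larval serum protein gene Lsp1alpha and the cuticle protein genes Cpr49Af and Pcp were also among them, with 5 genes known by CG number. The median also mixes genes of unlike leg levels. Leg stood at 18.3% of haltere for Jon65Aiv and at 74.4% for Jon66Cii, beside 27.1% for Mlp60A and Lsp1beta. With 3 points a profile, likeness is a description only.

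Other genes of the midgut were taken from a list of 25, of which 17 were found in the tables. In the haltere disc 8 were above 0, and 7 were at least 2-fold higher there than in the wing disc and 0 lower. Of all genes tested, 15.5% were higher and 4.29% lower. Of the 7, Amy-p, Amy-d, PGRP-SC2 and Npc2d passed the minimum of 5 FPKM only through the haltere disc. PGRP-SC2 and Npc2d were listed at 0 in the wing disc. The protease gene yip7 was listed at 380 FPKM in the haltere, 85.4 in the leg and 18.0 in the wing disc, and the sterol carrier gene Npc2b at 287, 102 and 23.8. At 16 to 18 h, 12 of the 17 were above 0, led by Npc2b (328), Npc2e (86.6) and yip7 (73.3). Npc2e, Ser6 (16.6 FPKM), Bace (16.3) and Cht4 (3.11) were, like lambdaTry, above 0 in the late embryo and listed at 0 in all discs. Cht4 lay below the 5th percentile of values above 0 at that stage, 3.53 FPKM.

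Of 10 transcription factors of the midgut, 4 were listed at 0 in every disc. GATAe, a GATA factor of the endoderm, was at 4.01, 82.6 and 195 FPKM over the 3 embryonic stages and at 0 in leg, 1.03 in haltere and 1.47 in wing discs. The homeotic gene lab, which acts in the midgut, was at 57.2 FPKM at 16 to 18 h, at 1.18 in haltere discs and listed at 0 in leg and wing. The genes hkb, cad, bin and bap were above 0 at every embryonic stage and listed at 0 in every disc. Of the same list of 10 factors, GATAd (38.6 FPKM in haltere, 56.5 in leg and 64.4 in wing) and srp (20.7, 5.99 and 2.91) were highest in discs.

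At the pharate stage the proteases were listed at 0 almost throughout. The 16 Jonah genes were at 0 in leg, haltere and wing, and so were 8 of 9 trypsins. The exception was iotaTry, at 5.001 FPKM in the haltere and 0 in leg and wing. Lysozymes were above 0 in leg and wing and at 0 in the haltere.

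In the pharate wing, 6 of 7 lysozymes had values from 6.93 to 12.5 FPKM. They were LysP at 12.5, LysC at 12.1, LysS at 10.8, LysE at 8.36, LysB at 7.44 and LysD at 6.93. In the pharate leg LysB was at 27.0, LysD at 5.64 and LysC at 2.58, and LysE, LysP and LysS were listed at 0. LysX was at 0 in all 3. The 5th percentile of values above 0 was 5.58 FPKM in the wing and 4.79 in the leg. LysC in the leg lay below it, and LysD in the leg little above. In the wing all 6 lay above it, with LysD and LysB under the 10th percentile of 8.08.

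Between pharate haltere and wing, 1 of the 32 genes was higher in the haltere and 6 lower, beside 20.3% and 18.8% of all 8990 genes tested. All 7 were listed at 0 in the other column. Between pharate leg and wing, 1, LysB, was higher, 4 were lower and LysD was within 2-fold, beside 21.7% and 14.7%. Between pharate leg and haltere, LysB and LysD were higher and iotaTry lower, beside 17.1% and 14.3%. With 25 or more of the 32 genes at 0 in both columns of each comparison, these counts say little about the set.

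The amylase genes, which digest starch, differed among pharate appendages. So did PGRP-SC2, listed at 35.3 FPKM in the wing and 0 in leg and haltere. Amy-d was listed at 125 FPKM in the haltere, 10.96 in the leg and 3.44 in the wing, and Amy-p at 59.6, 5.02 and 2.73. They are close copies, and reads may be shared between them. Npc2b was high in every pharate appendage (1466 in leg, 1598 in haltere and 1778 in wing), where all Jonah genes were listed at 0.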

How the data were processed

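Levels were deposited by the authors as FPKM in 3 tables, per the file headers, with 1 column per tissue. Cuffdiff, TopHat 1.1.4, Bowtie 0.12.3 and CASAVA 1.7 are named, with build dm3, in the submitters' processing notes. Annotation, scaling between columns and depth are not given in the sources used here, and the sample titles name 2 replicates per column. Of 13934 rows, 248 carried 77 repeated names and were left out. Ratios are log2((FPKM + 1)/(FPKM + 1)) for genes with at least 5 FPKM in either column, and at least 2-fold was counted as apart. The call was tested on simulated data. No p-values were computed. The genes and lists were chosen with earlier results of these data known. All 32 genes are named, with every column given in words for those reaching 50 FPKM, and the highest 2 of each other list in the discs. Neighbourhood and span come from RefSeq (Release 6), whose coordinates are not those of dm3. Open chromatin peaks were not used here, as no dm3 gene annotation was at hand. Python 3.11.15, pandas 2.3.3, numpy 2.4.6 and matplotlib 3.10.9 were used.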

Additional observations from a re-analysis of the deposited data

Results flagged for a closer look

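Lysozyme genes LysB, LysS and LysP stood in opposite order at the disc and pharate stages, which is what singled them out. Each value rests on 1 column per tissue and the difference was not tested. For the haltere against the wing, LysB had a log2 ratio of 2.30 in discs and -3.08 in pharate appendages, LysS 4.59 and -3.56, and LysP 3.73 and -3.75. For the leg against the wing, LysS had 2.56 and -3.56 and LysP 2.65 and -3.75. For the leg against the haltere, LysB had -2.23 in discs and 4.81 at the pharate stage. In each pharate ratio, and for LysP in the wing disc, the lower of the compared columns was listed at 0, so the pseudocount of 1 sets the size of these ratios, and a zero here may be a failed estimate. For LysP in haltere against wing discs the ratio was 6.95 with a pseudocount of 0.1 and 1.79 with 5. The highest pharate value among them was 27.0 FPKM, for LysB in the leg.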

How the results depend on the processing

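Each of the 9 counts of genes apart was recomputed with a pseudocount of 0.1 or 5 FPKM, with no minimum level, with ratios centred on the median of all genes tested, and with genes above 0 in both columns only. The counts of the 3 disc comparisons stayed within 1.5 times under all 5. Without a minimum level, the genes apart became 4 at 6 to 8 h against 2 to 4 h (1 before), 24 at 16 to 18 h against 6 to 8 h (12 before) and 25 at 16 to 18 h against 2 to 4 h (12 before). With genes above 0 in both columns only, they became 0, 3 and 0 in these embryo comparisons. In the pharate comparisons they became 0 for haltere against wing (7 before), 2 for leg against wing (5 before) and 0 for leg against haltere (3 before). By construction, genes listed at 0 in one column drop out there. Of 80 gene ratios, 42 and 52 moved by over 1.5 times with pseudocounts of 0.1 and 5. Centring moved ratios by up to 0.14 on the log2 scale. The sign of a ratio at least 2-fold apart could not change under these settings, so it was not a check. No paired analysis was possible because each tissue has 1 pooled column, and for the same reason no replicate could be left out.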

Other observations

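The maltase genes of the Mal-A array, whose products split maltose, are in the tables under older symbols and CG numbers. These were looked up in RefSeq after the other values were seen. Mal-A3 (listed as LvpL) was listed at 0 at 2 to 4 h, at 2.84 FPKM at 6 to 8 h and at 425 at the last embryonic stage, and stood at 5.65 in haltere discs, with 0 in leg and wing. Mal-A2 (LvpD) stood at 102 FPKM at 16 to 18 h and was listed at 0 in all discs. Mal-A4 (CG8693) was at 26.1 and Mal-A1 (LvpH) at 15.1 FPKM at 16 to 18 h, both at 0 in all discs. In the embryo table these 4 genes were thus highest at the last stage, and 1 of them was above 0 in a disc.

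Mal-A5 (CG30359) was listed above 0 in all 9 columns, with 994, 32.5 and 81.8 FPKM over the 3 embryonic stages and 763 in the pharate leg. By contrast, Mal-A7 (CG11669) was listed at 0 in all 9 and Mal-A8 (CG8690) was above 0 only at 16 to 18 h, at 1.89. Mal-A6 (CG30360) stood at 2.31 at 16 to 18 h and at 5.96, 5.01 and 2.61 in pharate leg, haltere and wing.

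CG30031, which lies in the trypsin array beside gammaTry, had 215 FPKM in haltere, 35.8 in leg and 9.31 in wing discs, and stood at 0 in embryos and pharate appendages. Like alphaTry and betaTry it was highest in the haltere disc. It was also picked after its values were seen.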
